A study of Danio rerio with 8 samples.

Results

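Ribosome-protected RNA fragments were profiled in wild type zebrafish embryos (Danio rerio) at 4 hpf (hours post fertilization), a blastula stage. The wild type group held 2 of the 8 samples of the series. Per the labels it was the control group, with whole embryos as the tissue and no injection named. The labels name no strain and do not say whether the replicates came from separate clutches. The other 6 samples were ddx3xb mutant embryos, injected or not, and are not described here.

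The authors deposited 1 value per gene for the wild type, read here as the mean of both replicates. No value below therefore has an error, an n of its own or a test, and genes that stand close in rank cannot be told apart. The values are FPKM, a number of fragments divided by the length of the transcript and by the mapped fragments of the library, and so a level per length and not a read count. Of 33633 gene identifiers listed on a single line, 17721 were assigned to protein-coding genes by their symbol, and these are the genes ranked below. Shares are shares of summed FPKM, so that a short RNA weighs more in them than a long RNA with the same number of reads.

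In ribosome profiling, cycloheximide halts elongating ribosomes, a nuclease digests the RNA between them, and the stretches that ribosomes shield are sequenced. A footprint level depends on how much of an mRNA there is and on how densely ribosomes sit on it. An early zebrafish embryo divides fast on mRNAs and proteins laid down in the egg. Around the blastula stages the embryo's own genome is switched on and maternal mRNAs are cleared. No RNA-seq of the same embryos was used here, so the mRNA level and ribosome density cannot be told apart, and in whole embryos neither can fewer cells of a type and less RNA per cell.

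Identifiers assigned to protein-coding genes held a small share of the summed FPKM, beside a few short noncoding RNAs and many identifiers without a symbol. The 17721 protein-coding genes summed to 139565 FPKM, which was 6.81% of the 2050287 FPKM of all identifiers. Small nucleolar RNAs (snoRNAs), which guide the modification of ribosomal RNA, held 18.5% in 52 identifiers. Of that, snord29 alone stood at 239158 FPKM, or 11.7% of the whole sum, followed by SNORD30 at 40520 FPKM and snord75.2 at 19988 FPKM. Vault RNA, the short RNA of the vault particle, held 8.56% in 2 identifiers, 1 of which stood at 172242 FPKM. Ribosomal RNA (rRNA) held 4.22% in 503 identifiers, nearly all of it in a single 5_8S_rRNA identifier at 83312 FPKM. Of those 503 identifiers, 21 reached 1 FPKM.

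The largest share, 61.0%, fell to 11770 identifiers that have no symbol in the gene name table and therefore no class. It was held by few of them. At or above 1000 FPKM stood 80 identifiers, which together held 93.1% of the sum without a symbol, and ENSDARG00000082123 was the highest entry of all at 242722 FPKM. Their class was not assigned, and whether any of them encodes a protein, a snoRNA or an rRNA was not tested. The share of each class given here is therefore that of identifiers recognised by symbol and not the total of the class. Among identifiers with a symbol alone, protein-coding genes held 17.5% of the summed FPKM and snoRNAs 47.4%.

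Other noncoding classes, again as recognised by symbol, held little. The spliceosomal and related small nuclear RNAs held 0.262% in 53 identifiers, with snrnau11 of the minor spliceosome highest at 3212 FPKM. The RNA component of RNase P held 0.256% in 3 identifiers, nearly all of it in 1 at 5226 FPKM. MicroRNAs held 0.0460% and long noncoding RNAs 0.0389%. The highest long noncoding RNA was gas5, a host gene of snoRNAs, at 447 FPKM. Of the 100 highest identifiers of any class, 8 were protein-coding and 69 had no symbol, and the highest protein-coding gene held rank 69.

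**Figure D1:**
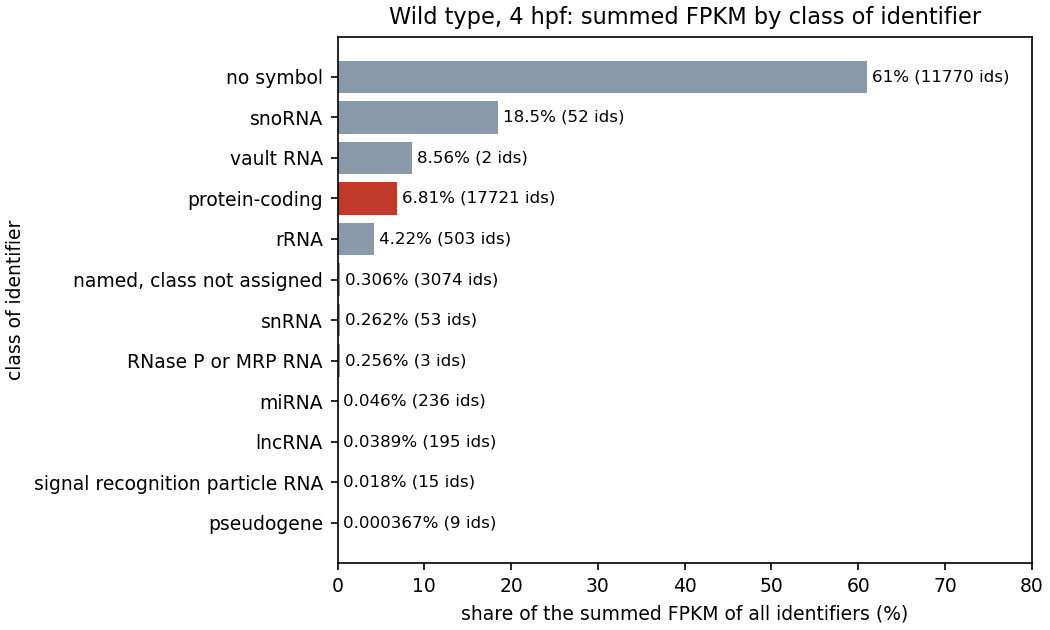
Share of the summed FPKM of all identifiers (x axis, percent) by class of identifier (y axis), with the number of identifiers in brackets. The protein-coding bar, in red, stands at 6.81%, below identifiers without a symbol (61.0%), snoRNAs (18.5%) and vault RNA (8.56%).

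Set apart from these classes, the protein-coding signal was concentrated in few genes. The 10 highest genes held 12.8% of the protein-coding FPKM, the 100 highest 34.5% and the 1000 highest 68.8%. The first 50% of the sum lay in 313 genes, which are 1.77% of the protein-coding identifiers, and the last of them stood at 66.7 FPKM. The median over all protein-coding genes was 0.673 FPKM. At 1 FPKM or more stood 7822 genes, or 44.1% of them, with a median of 4.92 FPKM. At least 10 FPKM was reached by 2309 genes, 100 FPKM by 191 and 1000 FPKM by 10. At the other end 1789 genes were listed at 0.

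**Figure D2:**
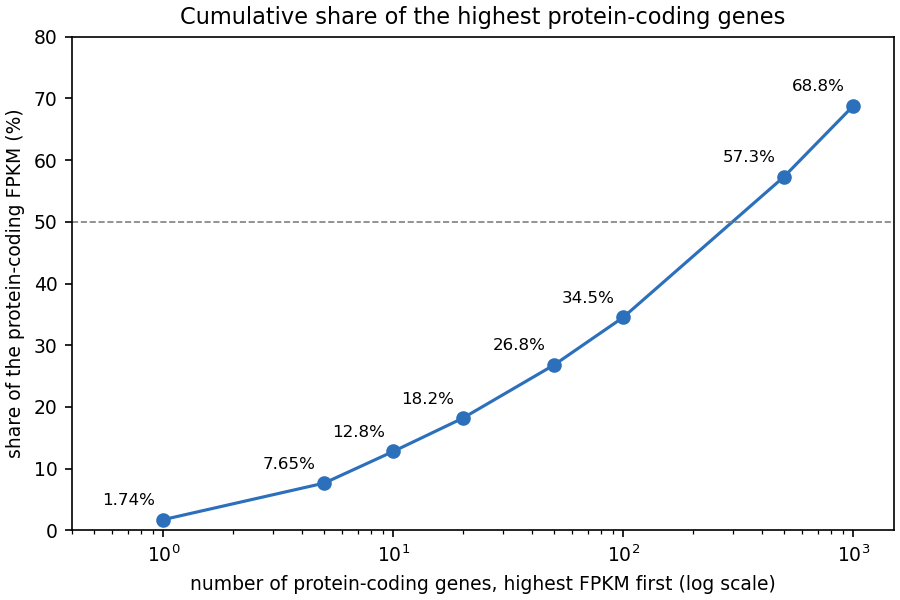
Cumulative share of the protein-coding FPKM (y axis, percent) against the number of genes, highest first (x axis, log scale), read at 1, 5, 10, 20, 50, 100, 500 and 1000 genes. The line passes 34.5% at 100 genes and 57.3% at 500, and the dashed line marks the 50% reached with 313 genes.

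The top of the ranking was mixed in function. HSPB1, a small heat shock protein that binds unfolded proteins, was highest at 2427 FPKM, or 1.74% of the protein-coding sum. PNRC2, a cofactor of mRNA decapping, followed at 2236 FPKM. Next came MT-ND6 at 2043 FPKM and MT-CYB at 2002 FPKM, respiratory chain subunits encoded by the mitochondrial genome. hmga1a, a DNA-binding protein of the high mobility group (HMG), stood at 1972 FPKM. pabpc1a, the cytosolic poly(A)-binding protein that coats mRNA tails, stood at 1873 FPKM. The step from rank 1 to rank 6 was thus smaller than that from rank 6 to rank 10.

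Ranks 7 to 10 were mostly chromatin proteins. HMGB2, which bends DNA, had 1599 FPKM. The linker histone h1l1 had 1504 FPKM and the nucleosome-binding protein hmgn1a 1125 FPKM, and mt-atp8, a mitochondrially encoded subunit of ATP synthase, closed the first 10 at 1079 FPKM. No other protein-coding gene passed 1000 FPKM.

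Ranks 11 to 30 ran from 931 to 439 FPKM. They included regulators of the actin and microtubule cytoskeleton. MARCKS, a membrane-bound protein that binds actin, had 849 FPKM, CFL1, the actin-severing cofilin, 789 FPKM, and STMN1, which sequesters tubulin, 469 FPKM. HSP90AB1, a cytosolic chaperone, stood at 791 FPKM, and HYPK, a partner of the N-terminal acetyltransferase NatA, at 575 FPKM. Nuclear proteins in this range were TOP1, a DNA topoisomerase, at 555 FPKM, the RNA-binding protein HNRNPAB at 548 FPKM, GMNN, the replication licensing inhibitor geminin, at 526 FPKM, and nucleolin (ncl), of the nucleolus, at 500.4 FPKM. GOLGA2, a matrix protein of the Golgi apparatus, had 472.5 FPKM, and smim15, a small membrane protein, 553 FPKM. Histones, described below, and mitochondrial genes took 6 more of these places. For si:ch211-113a14.28 at 931 FPKM, zgc:153409 at 874 FPKM and si:ch211-288g17.3 at 439 FPKM, only clone names are given.

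**Figure D3:**
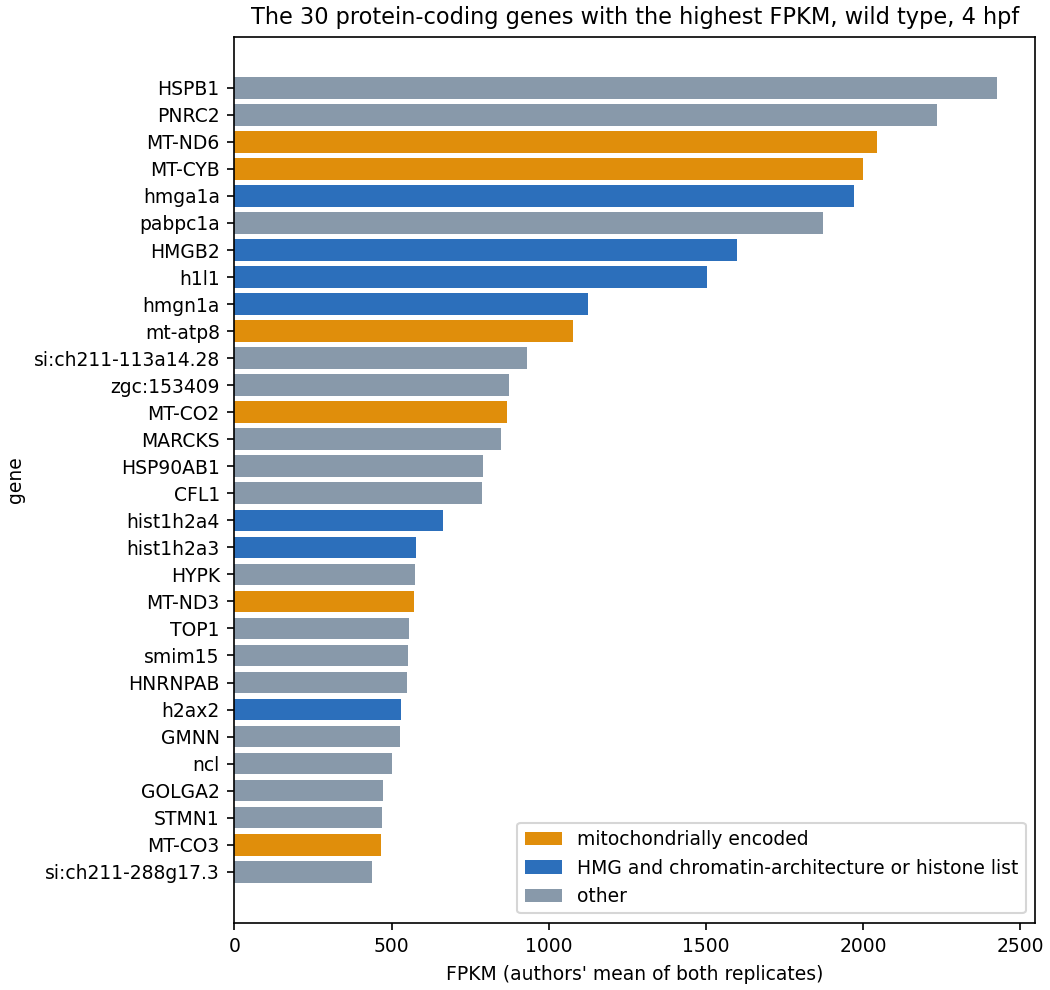
FPKM (x axis, the authors' mean of both replicates) of the 30 highest protein-coding genes (y axis), with mitochondrially encoded genes in orange, histones and chromatin-architecture proteins in blue and others in grey. The bars fall from 2427 FPKM (HSPB1) to 439 FPKM (si:ch211-288g17.3), and 13 of the 30 are orange or blue.

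The 30 highest genes held 21.8% of the protein-coding FPKM. Of these 30, 6 were mitochondrially encoded and held 5.04%, 7 were on the histone or chromatin-architecture list and held 5.71%, and 10 were on none of the 27 gene lists described below. Overlapping genes could share reads, since no source used here says whether the counting was by strand. In the GRCz12tu annotation, which is not the build of the files, 22 of the 30 could be looked up by symbol, and 8 overlapped another gene. Among these, ncl held 2 snoRNA genes within its bounds, and pabpc1a overlapped a long noncoding RNA. CFL1, HNRNPAB and GOLGA2 each overlapped another protein-coding gene. How much of their FPKM belongs to the neighbour was not tested. Of the 100 highest genes, 86 could be looked up and 30 overlapped another gene, not all of which are named below.

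Among the lists of nuclear genes, chromatin-architecture proteins held the largest share, an order that rests on the 10 highest genes. Without those 10, cytosolic ribosomal proteins held 2.63%, chromatin-architecture proteins 2.37% and histones 2.36%. The list of HMG and other chromatin-architecture proteins had 29 members, 28 of them at 1 FPKM or more. Of all protein-coding genes 44.1% reached 1 FPKM, which is the background for each such count below. The 29 held 5.43% of the protein-coding FPKM with a median of 148 FPKM, against 0.673 FPKM over all protein-coding genes. CBX3, at 407 FPKM, is not on this list although CBX5 and cbx3b are. The shares and their order are therefore those of the lists as drawn up. Most of the HMG signal came from 3 genes, each from another subfamily. These were hmga1a, HMGB2 and hmgn1a, which held 3.36%, where all 12 HMGA, HMGB and HMGN genes held 3.86%. The other 9 ranged from 183 to 0.647 FPKM. Of these, hmgn7 stood at 183 FPKM, a gene with the symbol HMGB3 at 165 FPKM, hmgb2b at 164 FPKM and hmgb1b at 148 FPKM. At the low end were hmgn3 at 1.78 FPKM, hmga1b at 1.37 FPKM and HMGA2 at 0.647 FPKM. Histone chaperones were also near the top of this list. A gene with the symbol SET had 377 FPKM and a second identifier of that symbol 172 FPKM, npm1a, a nucleophosmin, had 302 FPKM and ANP32B 291 FPKM. In GRCz12tu, npm1a and ANP32B each overlap another protein-coding gene, and the part of these genes in their FPKM was not tested.

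Histones, the proteins around which DNA is wound, had 14 named members on the list, all above 1 FPKM, which held 3.13%. The symbol of hist2h2l, at 3.62 FPKM, does not say whether it is an H2A or an H2B gene. No other symbol on the list names an H2B gene and none an H4 gene, so this is the share of the 14 and not of all histones. The linker histone h1l1 alone made up 34.4% of the list's sum. Among 7 H2A genes, hist1h2a4 stood at 663 FPKM, hist1h2a3 at 578 FPKM and h2ax2 at 529 FPKM, and hist1h2a11 at 320 FPKM. The lowest H2A gene, h2ax1, stood at 15.5 FPKM. Among 5 H3 genes, h3f3a was highest at 219 FPKM. Histone genes are near-identical copies in clusters, and no source used here says how reads were divided among them, so the level of a single histone gene is uncertain. In GRCz12tu, hist1h2a4 and hist1h2a3 each overlapped other genes. Both lists together, 43 genes, held 8.56% of the protein-coding FPKM.

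The 13 proteins encoded by the mitochondrial genome held 6.09%, the highest share of any list. All 13 were among the 500 highest protein-coding genes, and 9 among the 100 highest. Their median was 395 FPKM and their lowest member, MT-ND1, stood at 119 FPKM. Levels differed widely between subunits of the same complex. Of the 7 subunits of complex I, which takes electrons from NADH, MT-ND6 had 2043 FPKM and MT-ND3 572 FPKM, while MT-ND4, MT-ND5, MT-ND2 and MT-ND1 lay between 147 and 119 FPKM. MT-CYB of complex III had 2002 FPKM. MT-CO2, MT-CO3 and MT-CO1, which form the core of cytochrome c oxidase, stood at 868, 466 and 395 FPKM. The ATP synthase subunits mt-atp8 and MT-ATP6 stood at 1079 and 257 FPKM. MT-ND6 lies on the strand opposite to the other 12 protein genes in vertebrates. Without it they held 4.63% of the protein-coding FPKM. Cycloheximide acts on cytosolic and not on mitochondrial ribosomes, and which of these fragments come from mitochondrial ribosomes was not tested.

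**Figure D4:**
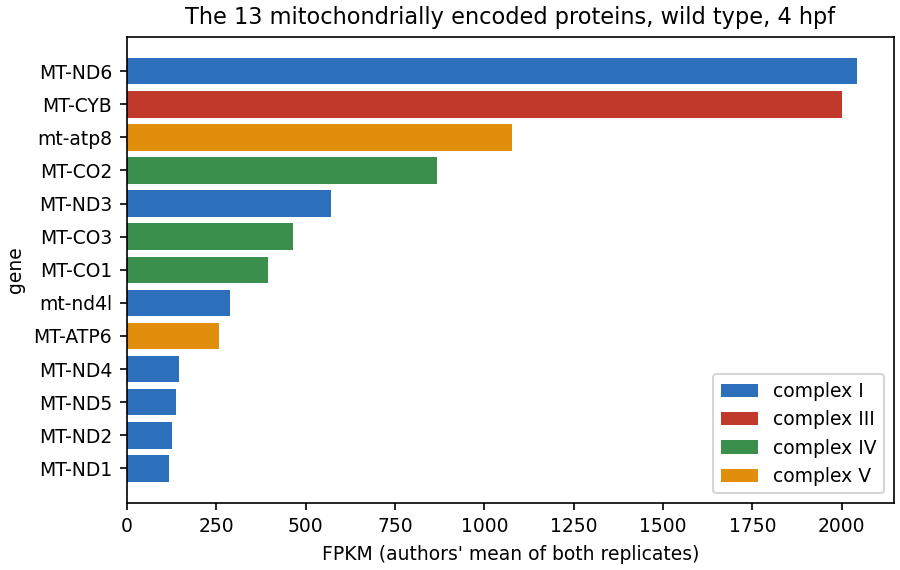
FPKM (x axis, the authors' mean of both replicates) of the 13 mitochondrially encoded proteins (y axis), coloured by respiratory chain complex. MT-ND6 and MT-CYB stand at 2043 and 2002 FPKM, and MT-ND4, MT-ND5, MT-ND2 and MT-ND1 at 119 to 147 FPKM.

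Nuclear genes for the same complexes stood much lower. The 94 nuclear genes for oxidative phosphorylation (OXPHOS) held 0.493% with a median of 2.35 FPKM, and 64 of them reached 1 FPKM. The summed FPKM of the 13 mitochondrial genes was 12.4 times that of the 94 nuclear genes. The highest nuclear members were atp5if1a, an inhibitor of ATP synthase, at 78.9 FPKM, the copper chaperone cox17 at 60.0 FPKM, atp5mc3b at 54.6 FPKM, COX5B at 35.3 FPKM and UQCRH of complex III at 27.9 FPKM. ATP5F1A, the alpha subunit of ATP synthase, stood at 199 FPKM but could not be assigned to a class by its symbol and is not among the 94. By complex, the median was 12 FPKM for complex III, 8.44 FPKM for complex V, 2.42 FPKM for complex II, 1.75 FPKM for complex I and 0.623 FPKM for complex IV with its assembly factors. Mitochondrial ribosomal proteins, 65 genes, had a median of 2.57 FPKM, with MRPS25 at 36.4 FPKM, MRPL27 at 22.6 FPKM, mrpl39 at 17.6 FPKM, MRPS34 at 15 FPKM and MRPS5 at 13.1 FPKM. Glycolysis genes were as low in median, at 2.25 FPKM over 15 genes, with GAPDH at 39.4, ENO3 at 33.3, TPI1 at 23.5, LDHB at 13.7 and ALDOA at 6.61 FPKM. A second identifier named TPI1 stood at 2.25 FPKM and a second ALDOA was listed at 0.

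The translation machinery was spread over many genes, most of them below the 100 highest. Of 71 cytosolic ribosomal protein genes, 70 reached 1 FPKM, and together they held 2.29% with a median of 25.2 FPKM. Of these, 39 were among the 1000 highest protein-coding genes and 3 among the 100 highest. RPLP1, of the ribosomal stalk, was highest at 316 FPKM, followed by RPS14 at 228 FPKM, RPS25 at 182 FPKM, RPS9 at 129 FPKM and RPL30 at 119 FPKM. The 40 genes of the large subunit had a median of 31.2 FPKM with quartiles of 18.8 and 62.9 FPKM. The 30 of the small subunit had a median of 23.7 FPKM with quartiles of 15.9 and 53.5 FPKM, so the subunits overlapped widely.

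Initiation factors, which load ribosomes onto mRNAs, held 2.58% in 61 genes, but pabpc1a made up 52.0% of that and the median was 9.94 FPKM. After it came the helicase eif4a1a at 369 FPKM, EIF3J at 159 FPKM, eif5b, which joins the ribosomal subunits, at 134 FPKM, and EIF1B at 125 FPKM. In GRCz12tu, eif4a1a holds 1 snoRNA gene within its bounds, and the part of that gene in its FPKM was not tested. Elongation and termination factors held 0.417% in 17 genes with a median of 3.65 FPKM. The termination factor ETF1 stood at 227 FPKM, the elongation factor eef1a1l1 at 147 FPKM, eif5a at 66.2 FPKM, EEF1G at 46.3 FPKM and EIF5A2 at 43.2 FPKM. In GRCz12tu, ETF1 overlaps a long noncoding RNA, whose part in its FPKM was not tested. A gene with the symbol EEF2, the translocation factor, had 0.459 FPKM and one named EEF1A1 was listed at 0, which is the level of those identifiers and not of all their copies.

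RNA-binding and mRNA decay factors held 3.23% in 54 genes, of which 53 reached 1 FPKM. PNRC2 made up 49.7% of their sum and the median was 14 FPKM. HNRNPAB, given above at 548 FPKM, is not on this list, nor are CAPRIN1 at 207 and HNRNPM at 197 FPKM. The shares and the order of members are therefore those of the list as drawn up. On it, khdrbs1a, an RNA-binding signalling protein, stood at 342 FPKM, hnrnpa0b at 240 FPKM and the stress granule protein G3BP1 at 219 FPKM. YBX1, a cold shock domain protein that binds maternal mRNAs, stood at 204 FPKM. In GRCz12tu, hnrnpa0b overlaps hnrnpa0l, listed at 180 FPKM, and YBX1 overlaps arhgef16 and a long noncoding RNA. The part of these neighbours was not tested. Splicing factors showed the opposite shape, with a higher median of 37.0 FPKM over 53 genes and no dominant member. On the list, srsf7a was highest at 235 FPKM and made up 9.58% of its sum. It was followed by SNRPD3 at 215 FPKM, SRSF1 at 192 FPKM, SF3B2 at 113 FPKM and SNRPB2 at 94.2 FPKM. SLU7, also a splicing factor, stood at 263 FPKM but is not on the list. Of the 53 splicing factors, 52 reached 1 FPKM and 33 were among the 1000 highest genes.

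Chaperones were dominated by a single gene. The 48 heat shock proteins and chaperones held 3.24%, of which HSPB1 made up 53.7%, and their median was 8.58 FPKM. HSP90AB1 at 791 FPKM and HSPA8, the constitutive HSP70, at 420.4 FPKM were the next highest. Far below them stood dnajb1b at 95.9 FPKM and HSP90B1, of the endoplasmic reticulum, at 81.2 FPKM. In GRCz12tu, HSPA8 holds 4 snoRNA genes within its bounds, and their part in its FPKM was not tested. Proteasome subunits held 0.402% with a median of 6.30 FPKM over 50 genes. PSME3, a nuclear proteasome activator, stood at 139.6 FPKM, well above PSMD1 at 47.0, PSMA3 at 29.3, PSMC3 at 26.8 and PSMD8 at 21.4 FPKM. The ubiquitin and SUMO system, 62 genes with a median of 7.07 FPKM, was led by ube2d2 at 136 FPKM and UBE2Q2 at 104 FPKM, both conjugating enzymes. The modifiers sumo3b and sumo3a had 95.9 and 69.7 FPKM, and the ubiquitin fusion gene rps27a 55.9 FPKM.

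Cell cycle genes held 1.81% in 53 genes with a median of 11.4 FPKM, and 49 reached 1 FPKM. GMNN was highest at 526 FPKM, and its target, the licensing factor CDT1, stood at 162 FPKM. TPX2, which builds spindle microtubules, had 430 FPKM, the mitotic cyclin CCNB1 197 FPKM and the histone chaperone subunit chaf1a 165 FPKM. In GRCz12tu, TPX2 overlaps mylk2, whose part in its FPKM was not tested. Nuclear pore and import genes held 0.555% in 41 genes, with ranbp1 at 157 FPKM and its GTPase RAN at 140.2 FPKM, the lamin LMNB1 at 96.5 FPKM, the importin KPNA4 at 60.1 FPKM and NUP50 at 45.4 FPKM. Of the 41, 40 reached 1 FPKM. The list of cytoskeleton genes held 0.988% in 47 genes, of which CFL1 made up 57.2%. MARCKS at 849 FPKM and STMN1 at 469 FPKM, given above, are not on that list. Next on it were tpm3, a tropomyosin, at 108 FPKM, actb1 at 89.5 FPKM, actb2 at 62.6 FPKM and cfl1l at 40.6 FPKM, and 28 of the 47 reached 1 FPKM.

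Lists of maternal factors had medians above the 0.673 FPKM of all protein-coding genes. So had every other list except cilium and sperm genes, later tissue markers and vitellogenins. Among 13 maternal transcription factors of genome activation, 11 reached 1 FPKM, with a median of 27.3 FPKM. nanog stood at 118 FPKM, rank 163 of the protein-coding genes, and pou5f3 at 108 FPKM, rank 177. These are the zebrafish homologues of mammalian pluripotency factors and open chromatin at genome activation. CTCF, an insulator protein, had 102 FPKM, SMAD2, an effector of Nodal signals, 90.2 FPKM and mych, a Myc family factor, 77.7 FPKM. The members under 1 FPKM were SOX2 at 0.189 FPKM and SMAD1 at 0.0738 FPKM. Of 31 maternal oocyte genes, 27 reached 1 FPKM, with a median of 9.25 FPKM. The highest were ncl, YBX1 and CCNB1, given above, then CCNA1, a cyclin of germ cells in mammals, at 53.0 FPKM and npm2b, an egg nucleoplasmin, at 35.2 FPKM. The germ plasm, cytoplasm that sets aside the germ cells, was represented by 14 markers, all at 1 FPKM or more, with a median of 7.61 FPKM. Its highest were the vasa helicase DDX4 at 35.4 FPKM, hook2 at 25.5 FPKM, CELF1 at 22.7 FPKM, ca15b at 17.7 FPKM and gra at 16.2 FPKM.

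Lists of genes switched on in the embryo stood lower in median than the maternal lists. The lists were drawn up by gene name and can hold genes of both origins. Which mRNAs were maternal and which zygotic was not tested. Of 28 genes on the list of early zygotic transcription factors 20 reached 1 FPKM, or 71.4%, against 44.1% of all protein-coding genes. The 28 include isg15, a ubiquitin-like protein and not a transcription factor, at 23.4 FPKM. Their median was 5.13 FPKM and their share 0.305%. grhl3, an epithelial factor, stood apart at 149 FPKM, ahead of irx7 at 36.0, ID1 at 35.2, the mesoderm factor tbx16 at 33.5 and her5 at 29.7 FPKM. Of 27 zygotic signalling genes 17 reached 1 FPKM, or 63.0% against the same 44.1%, with a median of 2.68 FPKM. The list was led by gdf3, a Nodal partner that is also maternal in zebrafish, at 75 FPKM, then the retinoic acid hydroxylase CYP26A1 at 44.0 FPKM and the Nodal co-receptor tdgf1 at 20.9 FPKM. The BMP antagonist chrd had 18.5 FPKM and the receptor gene aplnrb 16.5 FPKM. BMP4 was at 0.0265 FPKM.

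Markers of the cells of a blastula and of later tissues were set beside the stage label. The enveloping layer, the outer epithelium of the embryo, had 24 markers with 14 at 1 FPKM or more, a share of 58.3% near the 44.1% of all protein-coding genes. Besides grhl3, these were led by the adhesion protein epcam at 73.9 FPKM, the keratin krt18a.1 at 37.5 FPKM, klf17 at 23.8 FPKM and the claudin cldnb at 20.8 FPKM. The yolk syncytial layer, which lies between yolk and blastoderm, had 14 markers with 8 at 1 FPKM or more, or 57.1%, again near that background, so neither count by itself speaks for the label. The protease gene ctsla made up 80.1% of their sum at 375 FPKM. The others were far lower, with apoeb at 31.1, sdc4 at 24.4, and the defining homeobox genes mxtx1 at 17.7 and mxtx2 at 8.61 FPKM. Markers of later tissues that were assigned to protein-coding genes were near 0, as their summed share of 0.00313% shows. Of 19, ELAVL3, of neurons, reached 1 FPKM at 1.44, and the rest stood at 0.521 FPKM (ins, insulin) or lower. A further 2 on that list were not assigned to protein-coding genes by their symbol, and their levels are not given here. Of 6 vitellogenins, yolk proteins made by the mother's liver, 0 reached 1 FPKM and the highest of the 6, vtg3, stood at 0.193 FPKM. Left out in the same way was 1 more vitellogenin, whose level is not given here. The 19 later tissue markers ranked here, all low, did not go against the label of a blastula stage. Vitellogenins, as products of the mother's liver, cannot test that label. The genotype was not checked by any of these markers.

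**Figure D5:**
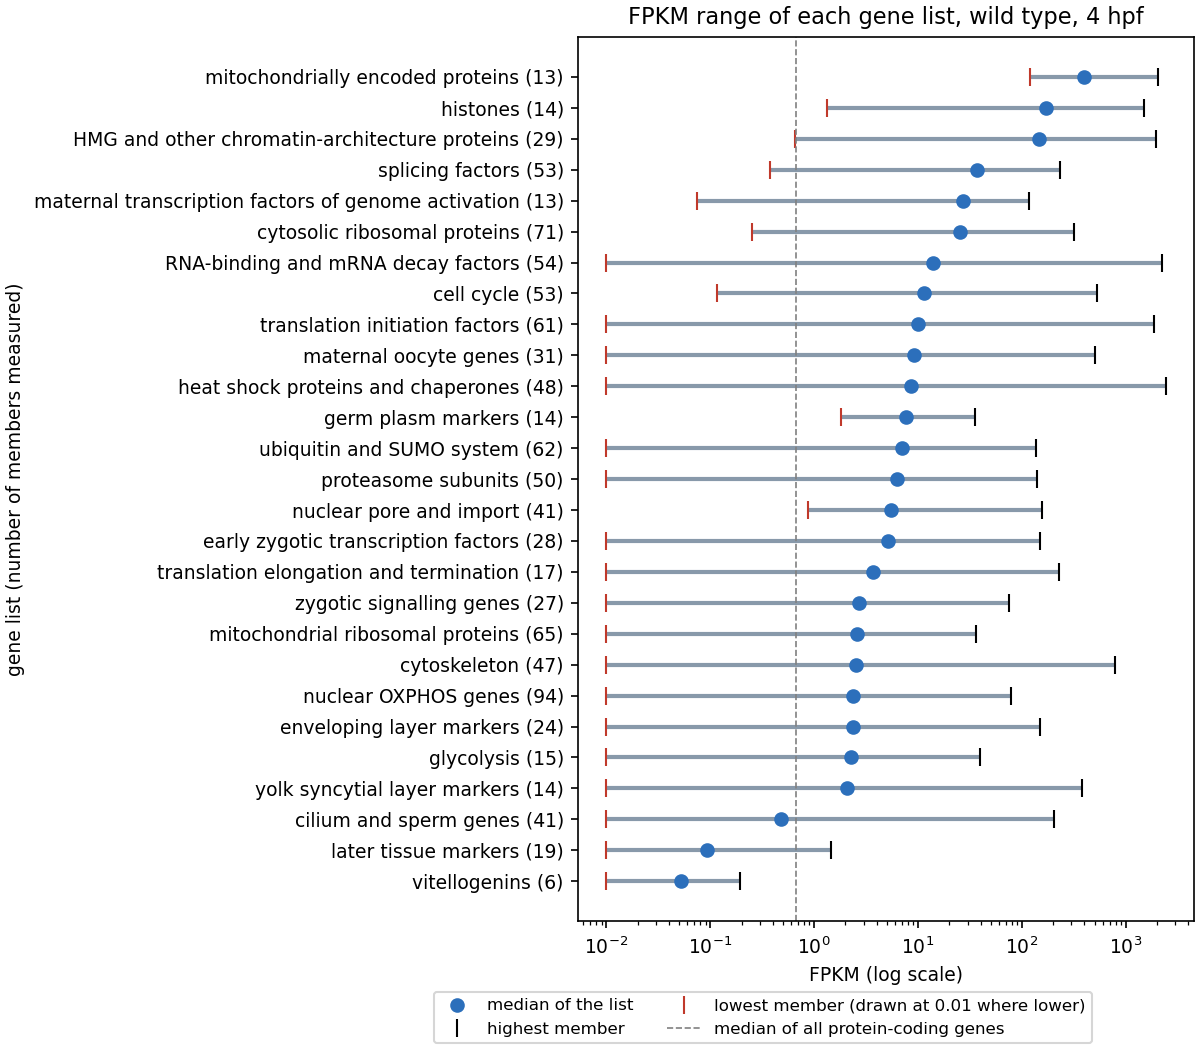
FPKM (x axis, log scale) of the 27 gene lists (y axis, with the number of members measured), ordered by median; bars run from the lowest to the highest member, dots are medians and the dashed line is the median of all protein-coding genes, 0.673 FPKM. Mitochondrially encoded proteins, histones and chromatin-architecture proteins lie furthest right, with medians of 395, 170 and 148 FPKM, and the medians of cilium and sperm genes, later tissue markers and vitellogenins lie left of the dashed line.

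Cilium and sperm genes, 41 in number, were listed as genes of other cell types. Whether each of them marks cells that a blastula lacks was not tested, so the list was not read against the stage label. Their median was 0.476 FPKM and 11 reached 1 FPKM. SPATA6, which builds the sperm connecting piece in mice, stood out at 204 FPKM, or 66.0% of the list's sum, and DNAJB13, of the ciliary axoneme, at 47.0 FPKM. They were followed by odf2b at 22.9 FPKM, the meiotic gene SYCP1 at 5.74 FPKM and MNS1 at 5.02 FPKM. In GRCz12tu, SPATA6 overlaps dnttip2, a gene of ribosome biogenesis, and the part of dnttip2 in its value was not tested.

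The 27 lists together covered 984 genes and 35.5% of the protein-coding FPKM, and some genes stand on more than 1 list.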

How the data were processed

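Cycloheximide, RNase I digestion, a spin column, rRNA depletion and a gel cut preceded a small RNA library kit, per the labels' protocols. The molecule label, polyA RNA, does not match them. Tools in the submitters' processing notes were Cufflinks 2.2.1, TopHat2 2.1.1, Bowtie, Trimmomatic 0.36 and cutadapt 1.13, with the build Zv9 and no settings. The deposited values are FPKM. The series text says that deposited values were made from both replicates, without naming the wild type group, whose values came in another layout. The depth is unknown and no error can be given.

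The deposited table held 33851 lines with 33734 identifiers, and 101 identifiers on 218 lines were left out. Symbols matched 21863 identifiers. Short RNAs were classed by symbol pattern and protein-coding genes by the RefSeq GRCz12tu table, by symbol (14172), synonym (2156) or symbol with an added a or b (1380), plus the 13 mitochondrial genes. Symbols are spelled as in the table of gene names, so that many carry capital letters. Ranks, sums, shares and medians were computed with Python 3.11.15 and pandas 2.3.3. On simulated data, only the shares of the protein-coding, snoRNA and rRNA classes and the dropping of repeated identifiers were checked. A gene was counted as detected at 1 FPKM.

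Named were the 30 highest protein-coding genes and the 5 highest members of each list. Others, such as lowest members, were chosen after their values were seen. The gene lists and the group described were chosen with earlier results of these data known.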

Additional observations from a re-analysis of the deposited data

How the results depend on the processing

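Of 86 alternative values, 76 lay within 1.5-fold of those reported and 10 did not. The 76 include list shares that could not move that far, as given below. Counting identifiers without a symbol or class as protein-coding raised the protein-coding share from 6.81% to 68.1%, so that share rests on identifiers whose class is not known. The count of detected genes moved with its threshold, from 15932 above 0 and 14153 at 0.1 FPKM to 3866 at 5 FPKM and 2309 at 10 FPKM. Of the values above 0, 19 lay under 0.0001 FPKM. Leaving out the 10 highest genes left 22 of 27 list shares within 1.5-fold. It lowered that of the mitochondrially encoded proteins to 2.77%, of chromatin-architecture proteins to 2.37%, of RNA-binding and decay factors to 1.86%, of chaperones to 1.72% and of initiation factors to 1.42%, lists that lose members by construction. Histones, which lose h1l1, went from 3.13% to 2.36%. Every other list had no member among those 10. Its share could only rise by a common factor and could not move 1.5-fold, so the 22 are no measure of stability. Cytosolic ribosomal proteins, at 2.63%, then passed chromatin-architecture proteins as listed. Summing the repeated identifiers instead of leaving them out kept all 36 values it was tried on within 1.5-fold. Without mitochondrially encoded genes, a count chosen after seeing the data, 368 instead of 313 genes held 50% of the sum. With exact RefSeq symbols alone, also chosen after seeing the data, the protein-coding share was 5.78% and the 10 highest genes held 14.5%. The alternatives that need protein lengths or sequences were not run. Leaving out a replicate could not be done, because a single value per gene, read as the mean of both, was deposited. No paired analysis was possible because the result comes from no test and replicate values were not used here.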

Other observations

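Zebrafish keep many duplicated genes from a genome duplication in the ancestor of teleost fishes, often named with a final a and b. By name alone, and among symbols in lower-case letters, 485 such pairs had both members among the protein-coding genes. In 93 of them at least 1 member reached 10 FPKM. In 44 of the 93, or 47.3%, a single member held at least 90% of the pair's summed FPKM. The 93 were picked by their higher member, and most protein-coding genes stood under 1 FPKM. An unrelated partner would therefore often be far lower as well. Whether 47.3% differs from the share among unrelated genes picked in the same way was not tested, so it does not measure dominance of a duplicate. The member named a was the higher in 47 of the 93, so neither suffix led. Both members reached 10 FPKM in 21 pairs. The pairing rests on the names alone, and sequences were not compared. These pairs were looked at after their values were seen.

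Several one-sided pairs were among the highest genes. hmga1a stood at 1972 FPKM against 1.37 FPKM for hmga1b, pabpc1a at 1873 against 4.37 FPKM for pabpc1b, eif4a1a at 369 against 2.54 FPKM for eif4a1b and npm1a at 302 against 5.70 FPKM for npm1b. The b member led in akap12, a scaffold protein of kinase A, with 214 FPKM for akap12b and 0.0879 FPKM for akap12a. In GRCz12tu, eif4a1a holds 1 snoRNA gene within its bounds. There npm1a overlaps another protein-coding gene and a long noncoding RNA, and pabpc1a and akap12b each overlap a long noncoding RNA. The part of these neighbours in the values was not tested. The SUMO genes sumo3a and sumo3b were nearly even at 69.7 and 95.9 FPKM, as were the chromatin factor genes hcfc1a and hcfc1b at 28.2 and 38.7 FPKM. Of the helicase that the series mutates in its other groups, ddx3xb had 129 FPKM and ddx3xa 28.1 FPKM in the wild type.

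A cluster of 5 identifiers that share the clone name si:ch211-113a14 summed to 2041 FPKM, and all 5 reached 1 FPKM. Of these, si:ch211-113a14.11, at 585 FPKM, could not be assigned to a class by its symbol. In GRCz12tu, si:ch211-113a14.15 overlaps the histone gene hist1h2a4 and si:ch211-113a14.25 overlaps hist1h2a3, but neither is among the 5. Of the 5, si:ch211-113a14.28 overlaps si:ch211-113a14.24 there, and how reads were divided between them was not tested. The products of the 5 are not named in the tables used here.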
